A study of Mus musculus with 4 samples.

Results

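The 7 genes described here are those of the interleukin 1 (IL-1) system in mouse mucosal mast cells: the ligands Il1a and Il1b, the receptor antagonist Il1rn, the receptors Il1r1 and Il1r2, the receptor accessory protein Il1rap, and Casp1, the protease that matures interleukin 1β. They were taken by name: every gene spot that carries 1 of the 7 names was used, in both channels and on all arrays. They occupy 23 of the 43379 gene spots of each array, through 14 of 41174 probe designs, and are 7 of 27962 names. Gene expression was measured on 4 arrays of 2 colours each. The cells were mucosal mast cells differentiated in vitro. On each array the IL-18 stimulated sample carried the dye Cy5 and its own unstimulated control the dye Cy3, and each array is 1 of 4 biological replicates; whether these came from separate mice is not stated in the labels, so the p-values measure the spread between these samples. The labels used here name no mouse strain, no method of differentiation, and no dose or duration of IL-18. The dye orientation was the same throughout, so a dye bias of a probe and an effect of IL-18 cannot be told apart. The comparison asks how far transcripts of the IL-1 system differ, within a replicate, between cells with and without IL-18.

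Interleukin 1α and interleukin 1β are inflammatory cytokines that act on the same receptor, IL-1R1, which recruits the accessory protein IL-1RAcP (encoded by Il1rap) and signals through MyD88 and IRAK kinases to NF-kB. The antagonist IL-1Ra, encoded by Il1rn, occupies IL-1R1 without signalling, and IL-1R2 is a decoy that binds the ligand and lacks the signalling domain. Interleukin 1β is made as an inactive precursor, which caspase-1 cleaves in the inflammasome, so transcript levels do not measure the mature cytokine. IL-18, the stimulus here, belongs to the same cytokine family, is also matured by caspase-1, and signals through a related receptor pair. Mast cells carry that receptor and release cytokines in response to IL-18.

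Il1a and Il1b lie next to each other on chromosome 2, with no protein-coding gene between them in the RefSeq annotation of GRCm38.p6. Their promoters are shown beside that of the antagonist because these are the 3 ligand genes of the set. Each has a probe called higher, but the Il1a probes entered the test only through Cy5, so their calls are no support for a rise. Each line gives the 250 bases before the start of a RefSeq promoter entry (GRCm38.p6). The windows lie at chr2:129309973-129310222 on the minus strand for Il1a and chr2:129371140-129371389 on the minus strand for Il1b. For the first of 3 Il1rn entries the window lies at chr2:24336610-24336859 on the plus strand. The annotated Il1a and Il1b genes reach into their windows, to positions 129310186 and 129371164. Capitals mark matches to the TATA box TATAAA (searched on the gene's strand), the AP-1 motif TGANTCA, the C/EBP motif TTNNGNAA and the NF-kB consensus (searched on both strands).
Il1a promoter: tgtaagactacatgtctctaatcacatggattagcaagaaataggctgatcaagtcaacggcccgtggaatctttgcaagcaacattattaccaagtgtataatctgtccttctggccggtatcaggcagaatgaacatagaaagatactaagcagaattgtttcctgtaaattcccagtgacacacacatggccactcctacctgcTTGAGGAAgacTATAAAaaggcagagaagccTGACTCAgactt
Il1b promoter: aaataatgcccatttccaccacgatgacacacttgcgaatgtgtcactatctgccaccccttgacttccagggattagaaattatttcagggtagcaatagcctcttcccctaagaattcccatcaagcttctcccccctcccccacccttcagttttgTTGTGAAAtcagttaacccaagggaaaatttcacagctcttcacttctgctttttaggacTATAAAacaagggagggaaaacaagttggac
Il1rn promoter: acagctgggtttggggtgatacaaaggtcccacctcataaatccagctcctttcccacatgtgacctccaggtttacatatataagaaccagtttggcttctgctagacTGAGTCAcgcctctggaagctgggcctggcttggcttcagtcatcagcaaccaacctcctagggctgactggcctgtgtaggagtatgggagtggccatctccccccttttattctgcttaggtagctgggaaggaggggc
The TATA box stood 32 bases before the start in Il1a and 31 bases before it in Il1b, and the window of Il1rn held none. Il1a and Il1b each held 1 C/EBP match, and Il1a and Il1rn each held 1 AP-1 match. The NF-kB consensus had 0 matches in these 3 windows and 1 in 1 of the 2 Il1r1 entries. Of all 32851 RefSeq promoters of the same length, 7.59% held the TATA box, 6.75% the AP-1 motif, 36.8% the C/EBP motif and 7.25% the NF-kB consensus. The windows of Il1r2, Il1rap and Casp1 held no match to any of the 4 motifs. A match is only a run of letters, and binding was not measured here.

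The raw signals showed Il1b, Il1r1, Il1r2 and Casp1 well above background in unstimulated cells on all 4 arrays. So were Il1rn and Il1rap by their brightest probe, though not by every probe. Il1a was not well above background there on any array. Raw signal is the mean brightness of a spot as scanned, and levels of different probes are not compared here beyond whether they stood above background. The medians of the negative control spots were 68.7 to 73.9 in Cy3 and 47.7 to 49.6 in Cy5. The mean over all gene spots was 1156 to 1385 in Cy3 and 2968 to 3737 in Cy5, and the median 90.2 to 102 and 93.2 to 105. A brighter raw Cy5 signal is thus not by itself a rise. Of the 11 member probes bright enough to be tested, 8 were well above background in Cy3 on all 4 arrays and 2, both of Il1a, on none (0).

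**Figure D1:**
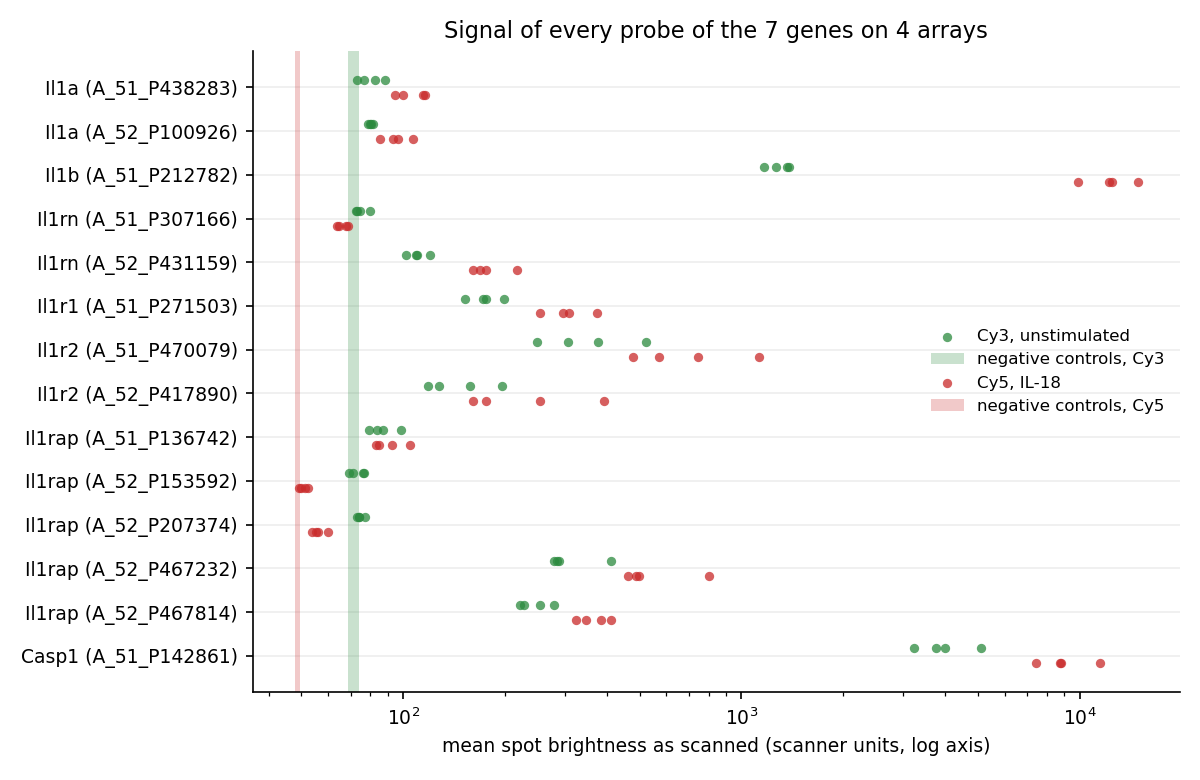
Mean spot brightness as scanned (log axis, scanner units) of each of the 14 probes, with 1 point for each of the 4 arrays in Cy3 (unstimulated) and in Cy5 (IL-18 stimulated); the bands span the medians of the negative control spots. Il1b lies between 1165 and 1381 in Cy3 and between 9864 and 14851 in Cy5, and the Cy3 points of Il1a, 72.9 to 88.5, lie within or just above the negative control band.

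Across each array 49.9% to 54.0% of gene spots were well above background in Cy3 and 57.9% to 62.7% in Cy5, no gene spot (0) was saturated, and 12 to 29 were marked as outliers. The log2 ratios of different arrays correlated across the 24104 tested probes with Pearson's r between 0.746 and 0.909 (probes are not independent replicates). For the marker lists below, the share of all tested genes called was 27.2% higher and 20.9% lower. All 17 mast cell marker genes, among them Kit, Mcpt1 and Mcpt2, were well above background, and 8 of them were called higher and 2 lower with IL-18. Some of the 8 depend on the processing. With the scanner software's own log2 ratio Mcpt2 read -0.14, Mcpt4 -0.05 and Il1rl1 -0.08. Cma1, Fcer1a, Mcpt1 and Cpa3 stayed positive there, at 0.13 to 0.44, and Gata2 had no mean. Among macrophage and monocyte markers, 3 of 16 tested genes were higher and 3 lower (Clec7a, Ccr2 and Csf1r), Adgre1, Cd68 and Lyz2 were among those above background, C1qa and C1qc were the 2 of 19 above it on no array, and the summed processed signal of the list was 99689 to 111282 in Cy3 and 90076 to 94994 in Cy5. The neutrophil markers Elane, Camp, Ngp, Lcn2, Csf3r, Retnlg and Mmp9 (7 of 14 on the array) were above background on no array, while of the other 7, all tested, Mmp8 was called higher (0.33), Cxcr2 lower (-0.26) and 5 were not called, S100a9 and Mpo among them. The list summed to 635 to 1512 in Cy3 and 589 to 1446 in Cy5. Of the remaining marker lists, the tested genes numbered 8 for dendritic cells (2 higher, 1 lower), 3 for eosinophils (2 higher, 0 lower), 10 for T, B and NK cells (4 higher, 1 lower), 7 for erythroid cells and megakaryocytes (0 higher, 1 lower, Itga2b) and 6 for basophils (4 higher, 0 lower; the list shares Cpa3 and Fcer1a with the mast cell list). Of 14 housekeeping genes 4 were higher and 7 lower, with a median log2 ratio of -0.13. The share of other cells in the RNA was not tested, and a change in the number of cells of a type and in the RNA per cell cannot be told apart in these bulk samples.

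With IL-18, 8 of the 11 tested member probes rose, 0 fell, and 3 did not pass the test. Values are log2 ratios of Cy5 over Cy3 after background correction and loess normalization within each array, tested in limma at an adjusted p of 0.05 (Benjamini-Hochberg, over the 24104 probes tested). The 8 probes are 72.7% of those tested, where 25.0% of all tested probes were called higher and 24.4% lower, and they belong to 6 of the 7 genes. Of the 8, 3 entered the test only through Cy5, where they are brighter: both Il1a probes and the dim Il1rap probe. Among the 8 member probes well above background in both channels on at least 3 arrays, a filter added after seeing the data, 5 were called higher (4 genes) and 0 lower, where 25.3% of such probes were called higher and 27.5% lower. At an unadjusted p under 0.05, 9 member probes were higher and 0 lower. Of the 11, 9 were higher on 4 of 4 arrays, which 33.1% of all tested probes were. By the brightest tested probe of each gene, 5 of the 7 genes were called higher and 0 lower, where 27.2% of all 16970 tested genes were called higher and 20.9% lower. The median log2 ratio of the 11 probes was 0.25, against 0.015 over all tested probes. Except under the filter on both channels, these counts and this median include probes that entered only through Cy5. Il1a is among the 5 genes called. With this processing only Il1b, among the 11 member probes, had a mean log2 ratio above 0.5.

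Il1b, the gene of interleukin 1β, had the third largest rise of all 24104 tested probes with this processing, and rank 13 with the scanner software's own ratio, which has no offset to lower the ratios of dim probes. Its probe (A_51_P212782) is printed in 10 spots on each array. The mean raw signal over these spots in Cy3 was 1264, 1369, 1381 and 1165 on the arrays of replicates 1, 2, 3 and 4. In Cy5 it was 12227, 9864, 14851 and 12450. Every Cy5 value was above every Cy3 value before any dye normalization, and the raw ratio of Cy5 over Cy3 was 7.21 to 10.8. After normalization the log2 ratios were 2.16, 1.93, 2.34 and 2.29, all far above 0, with replicate 2 the lowest. The mean was 2.18 ± 0.18 (SD, n = 4), or 4.53-fold, with an adjusted p of 4.48e-05 in limma. The spots of 1 array agreed more closely than the arrays did: their SD was 0.044, 0.081, 0.030 and 0.035 on the 4 arrays. On the array of replicate 2, 1 spot read 2.15 where the next highest read 1.96, and the mean of that array without it was 1.91. The 2 arrays of the first slide averaged 2.04 and those of the second 2.32. The fold depends on the intensity-dependent part of the dye normalization, since centring each array on its median in place of loess gave a log2 ratio of 3.03.

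Il1a, the gene of interleukin 1α, was called higher by both of its probes but was not well above background in unstimulated cells, so its ratios are bounds. The first probe (A_51_P438283) read 88.5, 82.5, 72.9 and 76.7 in Cy3 and 116, 94.4, 114 and 99.9 in Cy5 on the arrays of replicates 1 to 4. The second probe (A_52_P100926) read 81.2, 80.3, 78.5 and 79.9 in Cy3 and 93.5, 85.4, 107 and 96.8 in Cy5. Both were brighter in Cy5 on every array and well above background there on 4 of 4 arrays. After processing with an offset of 50 in both channels, the brighter over the dimmer channel was at least 1.21-fold for the first probe. This bound was set against the lowest signal that counts as well above background. For the second probe the bound was 1.09-fold. The fitted log2 ratios were 0.43 ± 0.13 (adjusted p 0.00146 in limma) and 0.34 ± 0.039 (SD, n = 4; adjusted p 8.44e-04). These sizes depend on the offset of 50 added to both channels: with an offset of 10 they were 0.81 and 0.67, and the scanner software's own ratio gave 2.01 ± 0.77 and 1.87 ± 0.22. Both probes passed the test under each of these. They entered it only through Cy5, the channel where they are brighter. Their calls and their bounds are therefore no support for a rise, though the counts of called probes above include these calls. Within the slides the first probe averaged 0.34 and 0.51, and the second 0.32 and 0.35.

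Il1rn, the gene of the receptor antagonist, rose by less than Il1b. The tested probe (A_52_P431159) read 120, 110, 102 and 109 in Cy3 and 176, 160, 217 and 169 in Cy5, with no overlap of the channels. The raw ratio of Cy5 over Cy3 was 1.46 to 2.13, where that of Casp1, which did not pass the test, was 2.19 to 2.35. The log2 ratios of Il1rn were 0.25, 0.39, 0.71 and 0.31, so that replicate 3 was the highest. The mean was 0.41 ± 0.21 (SD, n = 4), or 1.33-fold, with an adjusted p of 0.00509 in limma, and the software's own ratio gave 0.84. The slides averaged 0.32 and 0.51. The other probe of Il1rn (A_51_P307166) was well above background on 0 arrays in Cy3 and 1 in Cy5 and was not tested. The transcript of Il1b had the larger log2 ratio on each array: that of Il1b minus that of Il1rn was 1.91, 1.54, 1.63 and 1.98, or 1.77 ± 0.21 (SD, n = 4). The proteins were not measured. The exact two-sided sign-flip test of 4 arrays cannot pass the threshold, and it gave the smallest p it allows, 1 in 8. With the software's own ratio, which has no offset, the mean difference was 1.42, and under median centring it was 2.38.

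**Figure D2:**
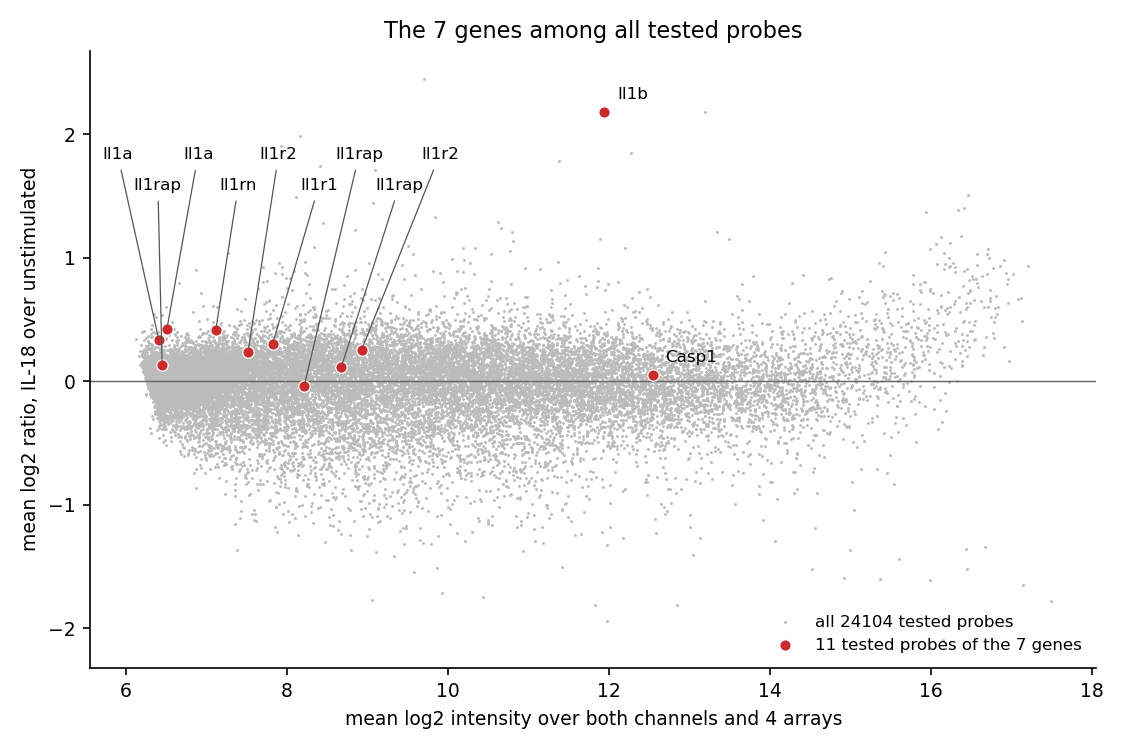
Mean log2 ratio of IL-18 over unstimulated against mean log2 intensity of both channels for the 24104 tested probes (grey) and the 11 tested member probes (red, labelled by gene). Il1b at 2.18 lies near the upper edge of the cloud, Casp1 at 0.05 lies near 0, and 7 of the 11 member probes are dimmer than the median tested probe.

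The receptor genes rose by small amounts. For Il1r1, the signalling receptor, the probe (A_51_P271503) read 199, 176, 152 and 173 in Cy3 and 375, 308, 254 and 298 in Cy5, without overlap. The raw ratio of Cy5 over Cy3 was 1.67 to 1.89, below that of Casp1. The log2 ratios of Il1r1 were 0.31, 0.41, 0.26 and 0.24, with a mean of 0.30 ± 0.076 (SD, n = 4; 1.23-fold; adjusted p 0.00199 in limma). The slides averaged 0.36 and 0.25. Both probes of Il1r2, the decoy receptor, were called higher. The brighter one (A_51_P470079) read 521, 376, 249 and 306 in Cy3 and 1129, 743, 479 and 571 in Cy5, so that replicate 1 was the highest in both channels and the channels overlapped across arrays. Its log2 ratios were 0.24, 0.34, 0.27 and 0.16, with a mean of 0.25 ± 0.077 (adjusted p 0.00387 in limma). The dimmer one (A_52_P417890) had log2 ratios of 0.40, 0.35, 0.14 and 0.07 and a mean of 0.24 ± 0.16 (SD, n = 4; adjusted p 0.0199). Its arrays on the first slide averaged 0.37 and those on the second 0.10, against 0.29 and 0.22 for the brighter probe. The call of the dimmer probe did not hold without replicate 1 (adjusted p 0.0693) or without replicate 2 (0.0959). Under median centring, Il1r1 read 0.70 and the Il1r2 probes 0.82 and 0.57.

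Il1rap, the accessory protein without which IL-1R1 does not signal, has 5 probes, and they did not read alike. The brightest (A_52_P467232, designed on NM_134103) read 411, 290, 279 and 284 in Cy3 and 800, 487, 463 and 497 in Cy5. Its log2 ratios of 0.15, 0.19, 0.04 and 0.10 had a mean of 0.12 ± 0.064 (SD, n = 4) and an adjusted p of 0.0537 in limma, just short of the threshold. The dim probe designed on NM_008364 (A_51_P136742) was called, at 0.13 ± 0.037 (adjusted p 0.0257), but it read 79.4 to 98.7 in Cy3, above background on only 1 of 4 arrays. That call did not hold without replicate 1, 2 or 3, with adjusted p-values of 0.0928, 0.0931 and 0.0741. A probe on a cDNA clone (A_52_P467814) had log2 ratios of -0.14, 0.08, -0.06 and -0.03, on both sides of 0, and did not pass the test (adjusted p 0.530). The other 2 probes were above background on no array (0 of 4) in either channel. Whether these probes read different transcript forms of Il1rap was not tested.

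Casp1 was bright in both channels and did not pass the test. Its probe (A_51_P142861) read 5120, 4002, 3250 and 3760 in Cy3 and 11533, 8747, 7460 and 8828 in Cy5. The raw ratio of Cy5 over Cy3 was thus 2.19 to 2.35 on every array, and loess, which sets probes of the same brightness to a ratio near 1, took it to log2 ratios of -0.05, 0.14, 0.10 and 0.03. The mean was 0.05 with an SE of 0.045 in the fit (SD 0.083, n = 4; adjusted p 0.364 in limma). With each array centred on its median the log2 ratio of Casp1 was 0.96 and passed the test, under a scaling that moved the median of all tested probes by 0.44 and made 93.0% of all calls higher, where 50.6% were higher with loess. Whether Casp1 is called thus depends on the scaling.

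**Figure D3:**
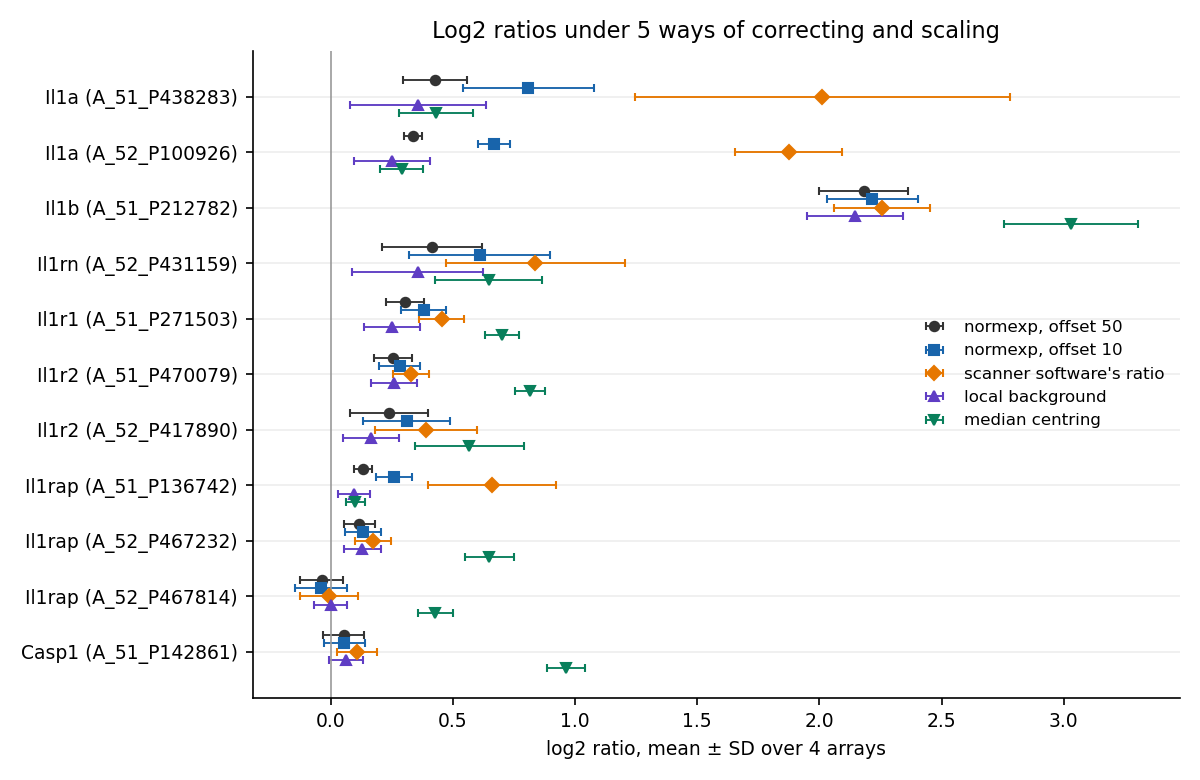
Log2 ratio (mean ± SD over 4 arrays) of the 11 tested member probes under 5 ways of correcting the background and scaling the channels. Il1b lies between 2.15 and 3.03 in all 5, the Il1a probes move from below 0.5 to about 1.9 to 2.0 with the scanner software's ratio, and Casp1 moves from 0.05 to 0.96 under median centring.

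Other genes of the IL-1 pathway were read beside the share of all tested genes called, 27.2% higher and 20.9% lower. A gene could enter the test through 1 channel alone, the one where it is brighter. Over all the pathway lists 31 genes were called higher and 12 lower. With the filter on both channels, added after seeing the data, 27 were higher and 12 lower. This was not split by list. Of 26 known IL-1 target genes on the array, 17 were tested, 14 were higher and 0 lower, with a median log2 ratio of 0.52. That median is the value of Cxcl2, whose probe is dim. The other 9 were above background on no array, among them Cxcl1, Nos2 and Vcam1. With this processing the largest were Nfkbia, the gene of the NF-kB inhibitor IκBα, at 2.18 ± 0.15, Nfkbiz, a nuclear IκB protein, at 1.78 ± 0.089, and Zc3h12a, a ribonuclease that degrades cytokine mRNAs, at 1.75 ± 0.083 (SD, n = 4; adjusted p 2.98e-05 in limma for each). With the software's own ratio, which has no offset, the dim probes of Csf2 (3.17) and Cxcl2 (2.59) stood above Zc3h12a (2.34) and Nfkbia (2.22). Many genes in that list respond to several inflammatory stimuli, IL-18 included. All 3 tested of the other ligands were higher: Il1f8 (now Il36b) at 0.54 ± 0.25, Il33, an alarmin, at 0.26 ± 0.024, and Il18 itself at 0.21 ± 0.051, while Il1f6, Il1f9 and Il1f10 were above background on no array. Of 6 other receptors and decoys tested, 3 were higher and 1 lower. Il18r1, the ligand-binding chain of the IL-18 receptor, read 0.24 ± 0.051, and Il18bp, which encodes a soluble inhibitor of IL-18, read 0.26 ± 0.064. Il18rap, the other chain of the IL-18 receptor, fell by 0.24 on the log2 scale (± 0.16; adjusted p 0.0201), but read 0.36 under median centring. Il1rl1, the receptor of interleukin 33, rose by 0.33 ± 0.18 (adjusted p 0.00791), but read -0.08 with the software's own ratio.

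Of 24 tested genes of the inflammasome and of IL-1 processing, 7 were higher, 8 lower and 9 did not pass the test. Their median log2 ratio was 0.017. The 7 higher are 29.2% of the list, near the 27.2% of all tested genes called higher. The 8 lower are a larger share than the 20.9% of all tested genes called lower. With this processing the largest in size were Capns1, the small subunit of calpain, at -0.96 ± 0.18, Cma1, a mast cell chymase, at 0.87 ± 0.13, and Capn1, the large subunit of calpain 1, at -0.69 ± 0.24 (SD, n = 4; adjusted p between 1.82e-04 and 0.00118 in limma). With the software's own ratio Mefv, a dim probe at 0.36 here, read 2.25 and Cma1 0.44, and under median centring Cma1 read 2.29. Calpains process the precursor of interleukin 1α, and chymases can cleave that of interleukin 1β. Among the sensor, adaptor and protease genes next to Casp1, which were picked after their values were seen, Nlrp3 read 0.16 ± 0.053, Casp4 0.22 ± 0.14 and Pycard, the adaptor ASC, -0.14 ± 0.065. Of the receptor-proximal signalling genes, 4 of 21 were higher (Ikbkg, Irak2, Tab3 and Chuk), 3 were lower (Irak4, Tab1 and Myd88) and 14 did not pass the test, counts that are below the share of all tested genes. Ikbkg, the regulatory subunit of the IκB kinase, read 0.37 ± 0.14, Irak4, the kinase next to MyD88, read -0.34 ± 0.063, and Tab1, an activator of the kinase TAK1, read -0.25 ± 0.083. Of the 12 pathway genes called lower with loess, 10 had a positive log2 ratio under median centring, Irak4, Tab1 and Myd88 among them; Capns1 and Capn1 stayed negative, at -0.23 and -0.18.

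**Figure D4:**
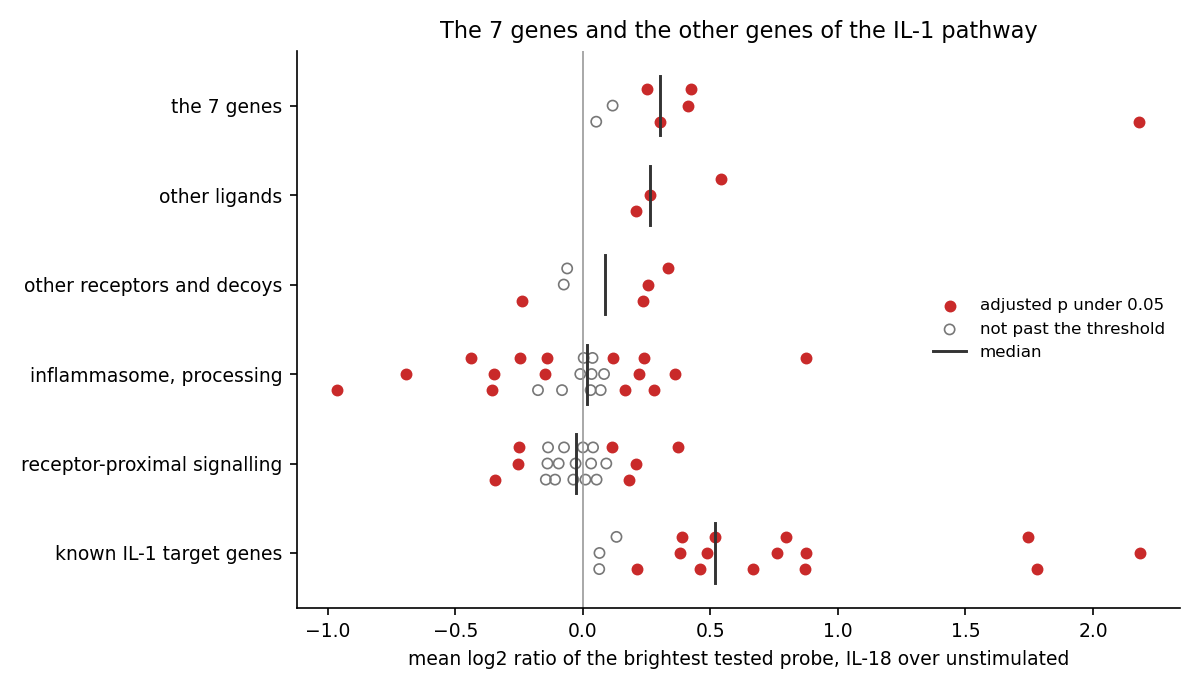
Mean log2 ratio (IL-18 over unstimulated) of the brightest tested probe of each of the 7 genes and of each tested gene in 5 lists of the IL-1 pathway; filled points passed the adjusted threshold of 0.05 in limma and black lines mark medians. The medians of the known IL-1 targets (0.52) and of the inflammasome and processing list (0.017) cover genes that could enter the test through 1 channel alone. Il1b and Nfkbia, both at 2.18, are the largest.

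Likeness to Il1b was the root-mean-square difference of the 4 log2 ratios between a gene and Il1b, over 12478 genes and 4 arrays, as a description with no test. The measure keeps the mean, so it mostly compares the size of the ratios, and only 45 tested probes had a log2 ratio of 1 or more. The nearest was Nfkbia at 0.084, with log2 ratios of 2.05, 2.05, 2.31 and 2.32, and it was the only gene (1) within 0.25. The next were the chemokine gene Ccl1 at 0.28, Irg1, the itaconate-producing enzyme, at 0.28, the chemokine gene Ccl3 at 0.34 and Nfkbiz at 0.42. Near the smaller log2 ratio of Il1rn lay 895 genes within 0.25, the nearest being Timp3 (0.075), Il1a (0.090), Col4a3bp (0.090), Rps26 (0.096) and Utrn (0.10).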

How the data were processed

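RNA of 4 pairs of stimulated and unstimulated cells was hybridised to 4 arrays, per the labels. The deposited scanner files hold, per the file headers, spot and background intensity in both channels and a log10 ratio, Cy5 over Cy3, that the authors' software, Agilent Feature Extraction 9.1, made by background subtraction and dye normalization. A deposited table of log10 ratios matched these within 0.00496 in any row, in the same direction, with column medians of 0; both log10 ratios were alternatives.

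Spot intensities were corrected with limma's normexp (offset 50) against the background level the software subtracted, then normalized by loess within arrays, with control spots and outlier spots at weight 0. This level was chosen after values under both levels had been seen: with the local background, normexp fitted a background mean of -381 in Cy3 on the array of replicate 1 and lifted its negative controls to a corrected median of 538, against 63.6 to 66.8 on the other arrays. A probe was tested when well above background in 1 channel on at least 3 of 4 arrays with at least 3 values, with limma 3.58.1 in R 4.3.3, two-sided. Each ratio is a difference within a pair, as the design text states, so this is the paired fit. Bounds take, on each array, the higher of the lowest well-above-background signal and the dim probe's own.

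Gene names are those of the array, updated where an accession matched RefSeq (24913 of 43379 gene spots). A gene is its brightest tested probe. All members are named with every probe; in each pathway list, the 3 called genes of largest size and all called where 5 or fewer are; and the 5 genes most like Il1b and Il1rn. The members and lists were chosen with earlier results of these data known. The steps were tested on simulated arrays of 24104 probes: of 50 probes changed by 0.25 on the log2 scale 26.0% were called, by 0.5 70.0%, by 1 98.0% and by 2 100%, with 11 false calls among 23904. Only 200 probes were changed there, while 49.3% of tested probes were called in the data, so these rates need not hold for the data. The number of arrays limits the precision, and no genome build is named in the files. Alternatives covered the offset, background, normalization, the software's ratio, the deposited table, filters, slide, outlier spots, the pairing and leaving out each replicate.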

Additional observations from a re-analysis of the deposited data

Results flagged for a closer look

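Among 15 sets of 4 log2 ratios examined, 1 had a sample far from the others: the second Il1a probe (A_52_P100926), where replicate 3 read 0.39 and the other arrays 0.31 to 0.32. The gap was 0.888 of the whole range, above the 95% limit of Dixon for 4 samples, which chance passes in about 1 of 20 such sets. The range is small in size, and the probe was brighter in Cy5 on all 4 arrays.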

How the results depend on the processing

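Il1b, both Il1a probes, Il1rn and Il1r1 kept their direction and their call under every alternative run that could test them, 17 or 18 for each (Il1b between 2.13 and 3.03, adjusted p at most 0.00196). The Il1a calls are no support for a rise, since these probes entered the main test only through Cy5. The number of member probes called was 8 and ranged from 5 to 10 over the alternatives. It was 5 when the pairing was dropped (no replicate block), where no Il1r2 or Il1rap probe was called (the brighter Il1r2 probe at 0.25, adjusted p 0.362; the dimmer 0.372; the dim Il1rap probe 0.152), 16.0% of all tested probes were called higher and 6 pathway genes lower. It was also 5 where both channels had to be above background, since that leaves out both Il1a probes and the dim Il1rap probe. The share of all probes called higher was 16.4% with no filter on dim probes and 71.7% under median centring; the share called lower was 5.41% under median centring and 16.1% with the local background. Leaving out each replicate gave 15.0% to 26.5% of probes called higher, and 7 to 14 pathway genes called lower. Pathway genes called lower numbered 12 with the main processing, 7 with the software's ratio, the deposited table or the local background, and 2 under median centring, where 63 were higher. The bright Il1rap probe became called with no background correction (0.13), median centring (0.65) and the software's ratio (0.17). It was also called with the deposited table (0.17), scaling between arrays (0.12) and no filter (0.12). In its place, the dim probe, which entered only through Cy5, was called (0.13), while A_52_P467814 was not (-0.04, adjusted p 0.530 in limma). Casp1 became called under median centring (0.96), and the Il1rap probe A_52_P467814 turned positive there (0.43), while the dim Il1rap probe was no longer called (adjusted p 0.103). The local background, added after seeing the data, ended the calls of the dimmer Il1r2 probe (adjusted p 0.0581) and the dim Il1rap probe (0.140). The cause of these shifts was not tested. Signal over background limits Il1a and the dim Il1rap probe, whose sizes depend on the offset.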
